A study of Mus musculus with 12 samples.

Results

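Tnf, its shedding enzyme and its receptors were followed through 4 treatments of a mouse macrophage-like line. The 6 genes were Tnf, Lta and Ltb, which encode ligands, Adam17, which encodes the protease, and Tnfrsf1a and Tnfrsf1b, which encode receptors. They were found by gene symbol in the annotation of the array, where each has 1 probe set, and they are 6 of the 19505 genes measured. The cells were RAW 264.7, a mouse line with macrophage features that grows in culture, and RNA was hybridised to 1 Affymetrix array per sample, 12 arrays in all. The 4 groups of 3 arrays were inulin with TsSP, TsSP alone, inulin alone, and neither, and all 12 samples received lipopolysaccharide (LPS), the bacterial outer membrane component that activates macrophages, at 500 ng/mL. The group with neither addition is called LPS below. TsSP was given at 50 µg/mL and inulin, a plant fructan used as dietary fibre, at 500 µg/mL, and the cells were kept for 6 hours. The series speaks of helminth products, and TsSP is named here only as the labels name it. No array of cells without LPS was used, so every difference below is one among LPS-stimulated cells of 1 line, and no label tells whether the 3 arrays stand for 3 cultures. The p-values therefore measure only the spread between these arrays, which may be technical.

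Tumour necrosis factor is made by macrophages within hours of LPS as a membrane-bound precursor. The metalloprotease Adam17 cuts it from the surface, and the soluble trimer binds the widely expressed receptor encoded by Tnfrsf1a, while the membrane form also engages the receptor encoded by Tnfrsf1b. Lymphotoxin alpha is a secreted relative that uses the same receptors, and lymphotoxin beta anchors it to the membrane in a complex that binds another receptor, encoded by Ltbr. All are reported here as RNA, so neither shedding nor secreted protein was measured.

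Tnf, Ltb and Lta lie beside each other on chromosome 17, in the order Ltb, Tnf, Lta, with Lst1 and Aif1 beyond Ltb and Nfkbil1 beyond Lta in the RefSeq annotation of GRCm38.p6. Adam17 is on chromosome 12, Tnfrsf1a on chromosome 6 and Tnfrsf1b on chromosome 4. The 250 bases before the transcription start are shown for Tnf and Ltb, the 2 ligand genes with the largest differences between the groups, so that the promoters of these 2 neighbours can be set side by side. Tnf is at chr17:35202008-35202257 on the minus strand and Ltb at chr17:35194257-35194506 on the plus strand, both read 5′ to 3′ along the gene from the RefSeq promoter table of GRCm38.p6. Capitals mark matches on either strand to the motifs searched, which were a TATA box spelled TATAAA, an ETS core spelled GGAAGT, a GC box spelled GGGCGG, the core of a cyclic AMP response element spelled TGACG, an EGR motif spelled GCGNGGGCG, and the NF-kB consensus. The matches did not overlap each other.
Tnf: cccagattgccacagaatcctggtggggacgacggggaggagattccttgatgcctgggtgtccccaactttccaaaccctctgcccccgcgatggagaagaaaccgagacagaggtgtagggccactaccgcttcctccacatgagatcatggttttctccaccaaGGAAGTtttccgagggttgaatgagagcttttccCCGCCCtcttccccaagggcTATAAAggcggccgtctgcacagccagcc
Ltb: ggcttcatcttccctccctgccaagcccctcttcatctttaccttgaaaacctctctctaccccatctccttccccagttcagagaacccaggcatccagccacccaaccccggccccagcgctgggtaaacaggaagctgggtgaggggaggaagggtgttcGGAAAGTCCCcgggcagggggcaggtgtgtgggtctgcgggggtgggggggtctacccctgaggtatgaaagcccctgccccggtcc
The Tnf promoter held TATAAA starting 29 bases before the transcription start, GGAAGT 83 bases before it, and a GGGCGG on the other strand 49 bases before it. The Ltb promoter held 1 match to the NF-kB consensus, on the other strand and starting 87 bases before the start, and no match to TATAAA. The NF-kB consensus was found in 3.9% of 32851 mouse promoters of this length, TATAAA in 12.4%, GGAAGT in 19.7% and GGGCGG in 32.7%. The NF-kB consensus was not matched in this window of Tnf, and neither TGACG nor GCGNGGGCG was matched in any of the 6 genes. Of the other 4 genes, Lta had 1 TATAAA, which started 167 bases before its transcription start. Adam17 had 1 GGGCGG, Tnfrsf1b had 2 and Tnfrsf1a had no match to any of the motifs. A match describes the letters only, and binding was not measured. Sites further upstream or spelled otherwise were not searched for.

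Signals are the deposited values, read as log2, so a difference of 1 is a 2-fold change. Of the 6 genes, Tnf, Ltb and Adam17 differed among the 4 groups (limma F test, adjusted p = 1.71e-08, 7.36e-07 and 0.0293), where 18.7% of all 19505 genes did. Tnfrsf1b, Lta and Tnfrsf1a did not pass (adjusted p = 0.221, 0.373 and 0.652). The difference with TsSP was taken for each gene in 4 ways, as TsSP against LPS, inulin with TsSP against LPS, inulin with TsSP against inulin, and all 6 arrays with TsSP against all 6 without. These comparisons share arrays, so their values are given side by side and none is a repeat of another.

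**Figure D1:**
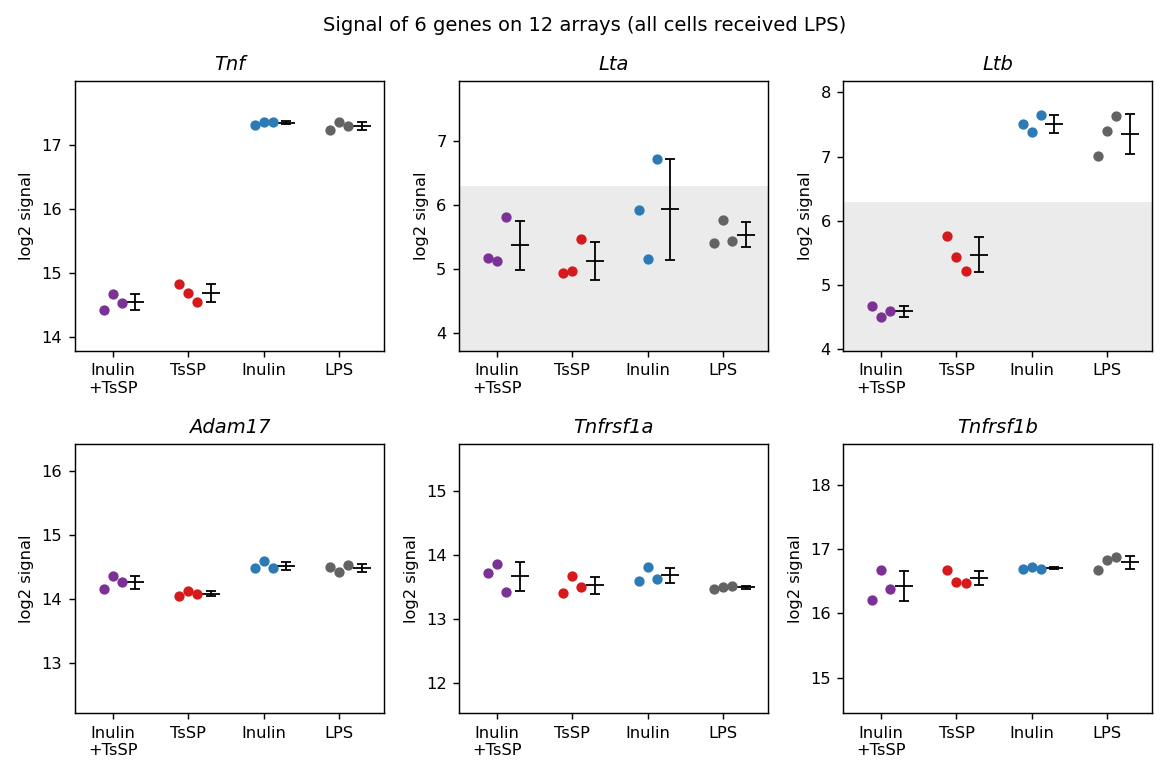
The log2 signal of each of the 6 genes (vertical axes, all spanning a range of the same width) on the 12 arrays, with points for arrays, a black bar for the mean ± SD beside each group of 3, and grey shading below the brightest background probe. Tnf and Ltb are low in both groups with TsSP, Adam17 and Tnfrsf1b differ by less, and most values of Lta lie in the grey zone.

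Tnf, the founding ligand of the family, had log2 signals of 14.43, 14.68 and 14.53 with inulin and TsSP, and 14.82, 14.69 and 14.55 with TsSP alone. Inulin alone gave 17.31, 17.36 and 17.35, and LPS 17.24, 17.36 and 17.29. The 6 arrays with TsSP were thus all more than 2 log2 units below the 6 without it, and within each of these sets the arrays of the groups with and without inulin overlapped. The means were 14.55 ± 0.13 with both, 14.69 ± 0.14 with TsSP, 17.34 ± 0.023 with inulin and 17.30 ± 0.060 with LPS (SD, n = 3 each). With TsSP the Tnf signal stayed far above the background level of 6.16 to 6.28, so Tnf RNA remained detected on every array.

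Against LPS, the Tnf signal was 6.72-fold lower with inulin and TsSP (log2 difference -2.75, SE 0.12, 95% interval of the fold 5.64 to 8.01, limma adjusted p = 6.15e-08) and 6.09-fold lower with TsSP alone (interval 5.11 to 7.26). Against inulin, inulin with TsSP was 6.93-fold lower (log2 difference -2.79, interval 5.81 to 8.26, adjusted p = 4.94e-08). Over all 6 arrays with TsSP against the 6 without, Tnf fell 6.50-fold (interval 5.74 to 7.35, adjusted p = 1.41e-09). Among the 1699 genes that fell in this comparison and were above background in all 4 groups, the Tnf difference was number 26 by size. Of all genes 2150 fell, and those below background in a group, such as Ltb, are not in this ranking. Other values moved with TsSP too, among them those of exon control probe sets. Their array medians were 11.22 to 11.36 with TsSP and 11.00 to 11.21 without. Beyond the centring given next, their part in the result was not tested. Centred on those medians, the Tnf difference was -2.86, which is the largest it reached under any of the 20 alternatives. In a bulk sample, fewer cells making a transcript and less transcript per cell cannot be told apart.

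Ltb, which encodes the membrane anchor of the lymphotoxin complex, had log2 signals of 4.67, 4.50 and 4.60 with inulin and TsSP, and 5.76, 5.44 and 5.21 with TsSP alone. Inulin alone gave 7.50, 7.38 and 7.65, and LPS 7.01, 7.40 and 7.63. All 6 arrays with TsSP were below background and all 6 without it were above. Because the low groups were not above background, folds for Ltb are lower bounds, set against the background level. Ltb was at least 2.13-fold lower with inulin and TsSP than with LPS (adjusted p = 1.23e-06) and at least 2.24-fold lower with TsSP than with LPS (adjusted p = 2.30e-05). It was at least 2.39-fold lower with inulin and TsSP than with inulin (adjusted p = 7.61e-07), and at least 2.31-fold lower over the 6 arrays with TsSP than over the 6 without (adjusted p = 8.16e-08). The measured group means were 4.59 ± 0.086 with both, 5.47 ± 0.27 with TsSP, 7.51 ± 0.14 with inulin and 7.35 ± 0.31 with LPS.

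Lta, which encodes the secreted lymphotoxin, was below background on 11 of the 12 arrays. Its log2 signals were 5.17, 5.12 and 5.81 with inulin and TsSP, 4.94, 4.97 and 5.46 with TsSP, 5.91, 5.16 and 6.72 with inulin, and 5.40, 5.76 and 5.44 with LPS. The 6.72 of 1 inulin array was the one value above background, and the 4 groups overlapped. No fold is given for Lta, and the difference over the 6 arrays with TsSP against the 6 without did not pass the threshold (log2 difference -0.49, adjusted p = 0.175). Without inulin replicate 2 that difference was -0.68 with an adjusted p of 0.0260.

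Adam17, the protease that releases Tnf from the cell surface, had log2 signals of 14.15, 14.36 and 14.26 with inulin and TsSP, and 14.05, 14.12 and 14.08 with TsSP. Inulin alone gave 14.48, 14.58 and 14.49, and LPS 14.50, 14.42 and 14.53. All 6 arrays with TsSP lay below all 6 without it, by less than 0.6 log2 units in every case. Over these sets Adam17 fell 1.26-fold (interval 1.12 to 1.41, adjusted p = 0.00567), a call made under all 20 alternatives. By size it was number 1501 of the 1699 falls of genes above background in all 4 groups. Against LPS it fell 1.32-fold with TsSP (log2 difference -0.40, SE 0.10, interval 1.13 to 1.55, adjusted p = 0.0199). That call was lost without LPS replicate 3, TsSP replicate 1 or TsSP replicate 3, with adjusted p-values of 0.0633, 0.0651 and 0.0593. With inulin and TsSP the values were 1.17-fold lower than LPS (interval 0.997 to 1.37, adjusted p = 0.184) and 1.20-fold lower than inulin (interval 1.02 to 1.40, adjusted p = 0.129), and neither passed.

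Tnfrsf1b, the receptor that responds best to membrane-bound Tnf, had log2 signals of 16.21, 16.68 and 16.38 with inulin and TsSP, and 16.67, 16.49 and 16.48 with TsSP. Inulin alone gave 16.69, 16.72 and 16.69, and LPS 16.68, 16.84 and 16.87. The arrays with TsSP did not overlap those without it, but the closest pair, inulin with TsSP replicate 2 and LPS replicate 1, both read 16.68 to 2 decimals. The level was 1.20-fold lower over the 6 arrays with TsSP (log2 difference -0.27, interval of the fold 1.04 to 1.39), which did not pass after adjustment (adjusted p = 0.0624). It passed under 7 of 20 alternatives, with adjusted p-values down to 0.000548 when the prior spread followed the mean signal. One of the 7 was the fit without inulin with TsSP replicate 2, the highest array of its group (adjusted p = 0.0178). Against LPS the difference was -0.37 with inulin and TsSP (adjusted p = 0.0816) and -0.25 with TsSP (adjusted p = 0.255).

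Tnfrsf1a, the receptor with a death domain that carries most responses to soluble Tnf, had log2 signals of 13.71, 13.86 and 13.42 with inulin and TsSP, and 13.40, 13.67 and 13.50 with TsSP. Inulin alone gave 13.60, 13.81 and 13.62, and LPS 13.47, 13.49 and 13.52. The arrays with and without TsSP overlapped. Their difference was 0.0078 (95% interval -0.20 to 0.22, adjusted p = 0.969), and it turned to -0.040 and -0.15 when arrays were centred on the median of genes above background or of the exon controls. No comparison of Tnfrsf1a passed the threshold in the fit or in any alternative.

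Counted together, 3 of the 6 genes (Tnf, Ltb and Adam17) were lower with TsSP than with LPS, where 18.1% of all genes passed, 7.08% lower and 11.0% higher. With inulin and TsSP, 2 of 6 (Tnf and Ltb) were lower than with LPS, where 17.6% of all genes passed, 7.30% lower and 10.3% higher. The same 2 were lower than with inulin, where 16.7% of all genes passed, 7.99% lower and 8.66% higher. Over all 6 arrays with TsSP against the 6 without, 3 of 6 were lower, where 11.0% of all genes were lower and 14.8% higher. In that comparison 19.6% of all genes were lower and 9.39% higher when arrays were centred on the exon controls. Of genes above background in at least 1 group, 48.7% passed it in either direction. When arrays were centred on the exon controls, 13.4% of all genes were lower and 6.25% higher with TsSP than with LPS, 13.3% lower and 5.83% higher with inulin and TsSP than with LPS, and 10.4% lower and 6.09% higher than with inulin. When they were centred on genes above background, 9.01% were lower and 8.63% higher with TsSP than with LPS. None of the 6 was called higher in any comparison. The arrays of the 2 groups did not overlap for 4 of the 6 genes (Tnf, Ltb, Adam17 and Tnfrsf1b) in each of these 4 comparisons. Among all genes that was so for 32.7% with TsSP against LPS, for 31.3% with inulin and TsSP against LPS, for 32.7% with inulin and TsSP against inulin, and for 18.0% over 6 against 6 arrays. In order of level, the groups with TsSP were the lowest 2 of the 4 for Tnf, Ltb, Adam17 and Tnfrsf1b, while Lta is given no order because none of its groups was above background. For Tnfrsf1a the order was inulin, inulin with TsSP, TsSP and LPS from the top, with neighbours no further apart than 0.14. For Tnf the order from the top was inulin, LPS, TsSP and both, and of these neighbours LPS and TsSP passed the test, while inulin and LPS did not, and neither did TsSP and both. For Ltb inulin and LPS stood above the other groups, which were below background and have no order. For Adam17 it was inulin, LPS, both and TsSP, and no pair of neighbours passed.

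**Figure D2:**
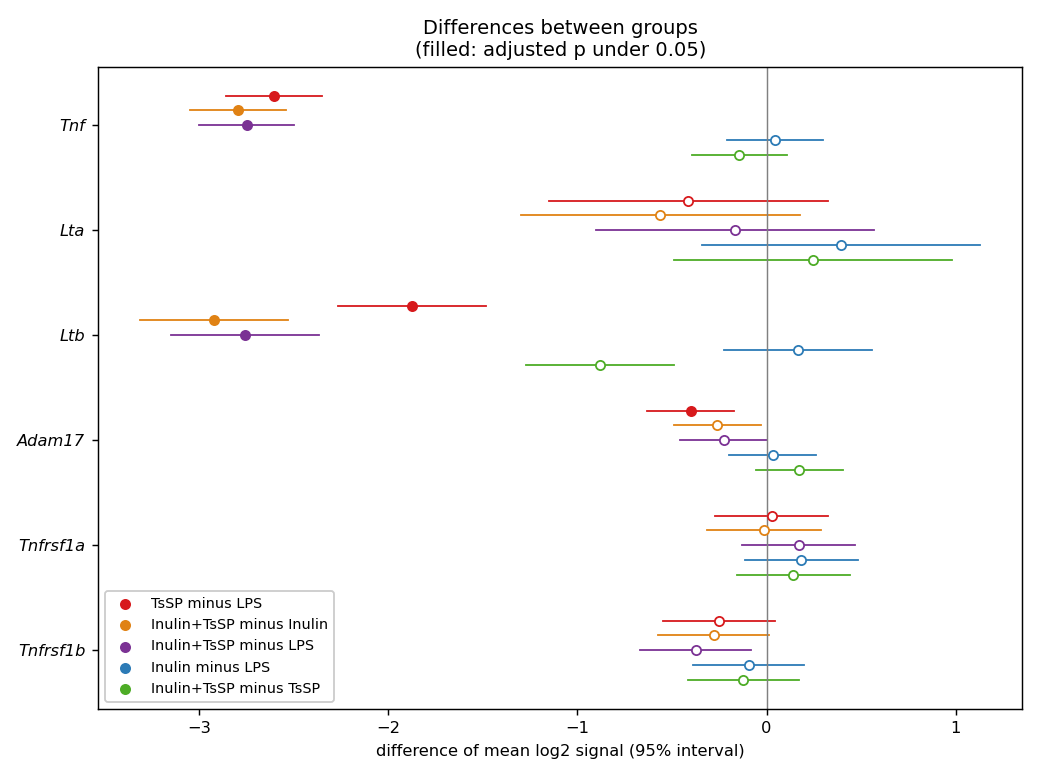
Differences of mean log2 signal between groups (horizontal axis) for the 6 genes (rows), with 95% intervals from limma and filled points where the adjusted p was under 0.05. The 3 comparisons of a group with TsSP against one without it put Tnf and Ltb below -1.8, while the intervals of the 2 comparisons that add inulin include 0 for Tnf, Lta, Adam17, Tnfrsf1a and Tnfrsf1b.

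Inulin was compared in 2 settings, alone against LPS and added to TsSP. For Tnf, inulin against LPS gave a fold of 1.03 (interval 0.865 to 1.23, adjusted p = 0.985), a difference of 0.044 that turned to -0.022, -0.0020 and -0.045 under the 3 other scalings. Tnf was 1.10-fold lower with inulin and TsSP than with TsSP (interval 0.926 to 1.32, adjusted p = 0.993). The TsSP difference itself was tested for a change with inulin, and the interaction for Tnf was -0.19 (SE 0.16, interval -0.55 to 0.17, adjusted p = 0.970). The interval for inulin added to TsSP thus reached a Tnf level 1.32-fold lower.

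No member passed the threshold in either inulin comparison or in the interaction, and neither did any other gene, so the background there is 0%. The 20 alternatives likewise called 0 of all genes in each. At an unadjusted p under 0.05 limma had 0 members and 1143 genes (5.86% of all) for inulin against LPS. For inulin with TsSP against TsSP it had 1 member and 971 genes (4.98%), and for the interaction 1 member and 1089 genes (5.58%). That member was Ltb, which had a log2 difference of -0.88 between inulin with TsSP and TsSP alone, with no overlap of the arrays (unadjusted p = 0.000412, adjusted p = 0.876). Arrays of these groups did not overlap for 11.1% of all genes. Both groups were below background for Ltb, so no fold can be given. The Ltb interaction was -1.05 (adjusted p = 0.803). Adam17 was 0.17 higher with inulin and TsSP than with TsSP, also without overlap (adjusted p = 0.988), and Tnfrsf1a 0.18 higher with inulin than with LPS, without overlap (adjusted p = 0.925), where 10.2% of all genes had none.

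Genes around Tnf were read from 8 lists with 153 entries, of which 141 were measured, and were compared over the 6 arrays with TsSP against the 6 without. The threshold was passed by 25.8% of all genes in this comparison and by 48.7% of those above background, and the median difference over all genes was 0.0043. Of all genes, 2878 rose and 2150 fell, and after centring on the exon controls 1831 rose and 3817 fell, with the median moved by -0.16, so list counts are given under both. No called list gene changed sign under any of the 20 alternatives.

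Among 16 measured genes of Tnf shedding and its control, 5 rose and 4 fell (2 and 5 on the exon control scale), with a median of 0.098. Plk2, a kinase reported to act on Adam17, fell 7.48-fold (log2 SE 0.092, adjusted p = 2.14e-09), with mean log2 signals of 11.71 with inulin and TsSP, 11.65 with TsSP, 14.64 with inulin and 14.52 with LPS. Rhbdf2, the inactive rhomboid iRhom2 that escorts Adam17 to the surface of macrophages, fell 1.41-fold (adjusted p = 0.000628). Mapk14, the p38 alpha kinase that can activate Adam17 shedding, rose 2.37-fold (adjusted p = 2.90e-07), and Frmd8, which stabilises the complex of Adam17 and iRhom, rose 1.39-fold (adjusted p = 0.00513). These 4 calls were made in every alternative. Adam10 and Adam9, related metalloproteases, rose 1.33-fold and 1.32-fold, and Sppl2b, a protease that cuts the membrane stub of Tnf, rose 1.36-fold, and all 3 lost the call when arrays were centred on the exon controls. Sppl2b also lost it with quantile normalization. Pcsk7, a proprotein convertase, fell 1.31-fold (adjusted p = 0.0207), a call lost without TsSP replicate 1 or inulin replicate 2. Pcsk5 was below background in all groups.

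The signalling complex of the Tnfrsf1a product had 26 measured genes, of which 4 rose and 11 fell (2 and 15 on the exon control scale), with a median of -0.19. Rnf31, the catalytic subunit of the linear ubiquitin ligase, fell 2.98-fold (adjusted p = 6.21e-08), and Tnfaip3, the ubiquitin-editing inhibitor A20, fell 2.78-fold (adjusted p = 7.98e-08). The adaptors Traf1 and Traf2 fell 2.00-fold and 1.57-fold, and the ligase Birc2 fell 1.68-fold. Ripk3, the kinase of necroptosis, rose 2.58-fold (adjusted p = 2.88e-07), while Mlkl, the effector that Ripk3 phosphorylates, fell 1.44-fold (adjusted p = 0.000218). The other 3 that rose were Ikbkg, the scaffold NEMO, by 1.50-fold, Tradd, the first adaptor, by 1.37-fold, and Map3k7, the kinase TAK1, by 1.21-fold. Tradd passed in 16 of 20 alternatives and Map3k7 in 10, and without TsSP replicate 2 or without inulin with TsSP replicate 1 the number that rose was 2.

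Regulators of Tnf transcription had 21 measured genes, of which 4 rose and 10 fell (2 and 13 on the exon control scale), with a median of -0.23. Egr1, an early growth response factor, fell 6.00-fold (adjusted p = 8.77e-07). Rel, the NF-kB subunit c-Rel, fell 2.84-fold (adjusted p = 1.55e-07), Nfkbiz 2.59-fold, Atf3, a repressor of inflammatory genes, 2.31-fold, and Junb 1.77-fold. Rela and Nfkb2, other NF-kB subunits, fell 1.27-fold and 1.67-fold. The list holds activators and inhibitors alike, and Nfkbia, which keeps NF-kB in the cytoplasm, fell 1.37-fold. All 10 falls were called in every alternative. Nfatc2, a calcium-dependent factor, rose 5.26-fold (adjusted p = 1.20e-06) and Ets1 at least 1.48-fold, both in every alternative, while the rise of Jun (1.30-fold) was lost on the exon control scale. The rise of Nfatc1 (1.47-fold) passed in 16 of 20 alternatives, and not on the exon control scale, with quantile normalization, without TsSP replicate 2 or without inulin with TsSP replicate 1.

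Of 18 measured genes that act on Tnf mRNA stability or translation, 6 rose and 3 fell (3 and 8 on the exon control scale), with a median of -0.050. Zfp36, which encodes tristetraprolin, the protein that binds the AU-rich element of Tnf mRNA and promotes its decay, fell 1.69-fold (adjusted p = 4.53e-05). Its relatives differed in direction from it, with Zfp36l2 3.20-fold higher (adjusted p = 6.53e-08) and Zfp36l1 1.96-fold higher (adjusted p = 8.44e-06). Dusp1, a phosphatase that switches off p38, rose 1.42-fold, and Rc3h1, the RNA-binding protein Roquin-1, fell 1.30-fold. These 5 calls were made in every alternative. Tia1, a translational silencer, was 1.24-fold lower and passed in 9 of 20 alternatives. The number that fell was 5 with quantile normalization and 6 when arrays were centred on genes above background.

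Of 13 other measured ligands of the family, 4 were above background in any group. None rose and 5 fell (7 on the exon control scale), with a median of -0.32. Tnfsf15, also called TL1A, fell 7.36-fold (adjusted p = 3.08e-09), and Tnfsf10, the death ligand TRAIL, fell 6.54-fold (adjusted p = 2.92e-09), both of a size near that of Tnf and both in every alternative. Tnfsf9, the ligand of 4-1BB, fell 1.26-fold (adjusted p = 0.0384) and passed in 11 of 20 alternatives. Tnfsf18 and Tnfsf4 were below background in all groups and passed in 14 of 19 alternatives each. The number that fell was 3 in 6 of the 12 fits that left out 1 array, namely those without LPS replicate 3, TsSP replicate 1, inulin replicate 2 or 3, or inulin with TsSP replicate 2 or 3.

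Of 25 other measured receptors of the family, 12 were above background, and 7 rose and 2 fell (6 and 4 on the exon control scale), with a median of 0.11. Tnfrsf9, which encodes 4-1BB, rose 9.04-fold (adjusted p = 3.17e-10), with mean log2 signals of 15.25 with inulin and TsSP, 15.22 with TsSP, 12.05 with inulin and 12.06 with LPS. Tnfrsf23, Tnfrsf26 and Tnfrsf22, a mouse cluster of relatives of the TRAIL receptor, rose 3.09-fold, 2.79-fold and 1.91-fold, and Relt rose at least 3.22-fold. Ltbr, the receptor of the lymphotoxin complex, rose 1.40-fold (adjusted p = 0.00153), whereas Ltb, which encodes part of its ligand, was below background on the same arrays. Tnfrsf12a, the receptor Fn14, was 1.32-fold higher and passed in 12 of 20 alternatives. Cd40, a receptor by which T cells activate macrophages, fell 2.58-fold (adjusted p = 1.69e-07), and Fas, a death receptor, fell 1.29-fold (adjusted p = 0.0103).

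Around the Tnf locus on chromosome 17, 10 neighbours were measured and 7 were above background. None rose and 3 fell (6 on the exon control scale), with a median of -0.24. Nfkbil1, on the Lta side, fell 2.36-fold (adjusted p = 2.62e-05), Aif1, beyond Ltb, fell 1.45-fold (adjusted p = 0.00215), and Abhd16a fell 1.89-fold (adjusted p = 0.000307). Lst1, the nearest protein-coding neighbour of Ltb away from Tnf, had a difference of -0.23 (adjusted p = 0.117), which passed in 3 of 20 alternatives, quantile normalization and centring on the exon controls among them (lowest adjusted p = 0.0135).

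Of 12 genes with TNF in their names, which are TNF-induced proteins, their relatives and partners, and the C1q/TNF-related C1qtnf1 and C1qtnf6, 2 rose and 2 fell (1 and 4 on the exon control scale), with a median of -0.019. Tnfaip2 fell 2.24-fold (adjusted p = 8.10e-07) beside Tnfaip3, which is also counted above. Tnfaip8l2, which restrains innate immune signalling, rose 1.62-fold (adjusted p = 9.39e-05), and Tnip3, a partner of Tnfaip3, was 1.18-fold higher and passed in 14 of 20 alternatives. The number that fell was 4 without LPS replicate 1. The number that rose was 1 without TsSP replicate 1 or inulin replicate 1 or 2. In all 8 lists no gene passed the threshold for inulin or for the interaction.

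**Figure D3:**
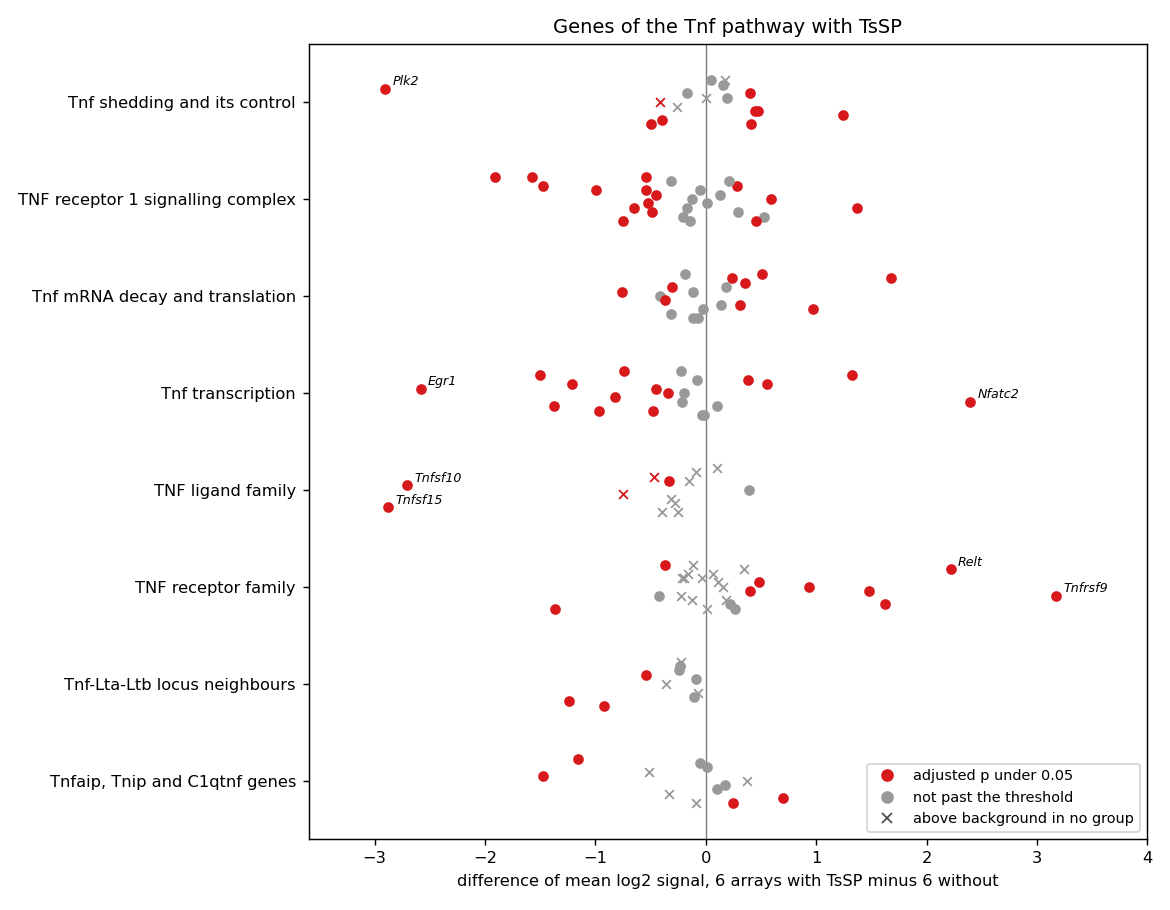
Differences of mean log2 signal over the 6 arrays with TsSP minus the 6 without (horizontal axis) for the measured genes of the 8 lists (rows), with red for an adjusted p under 0.05, grey for the rest and crosses for genes above background in no group. Each point is 1 gene, genes beyond 2 in either direction are named, and the ligands lie mostly left of 0 with Tnfsf15 and Tnfsf10 below -2.7, while 7 receptors lie to the right in red.

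The genes whose signal followed Tnf most closely over the 12 arrays were Cd274, Batf2, Slamf7, Nlrp3 and Chac1, with Pearson r of 0.998 for Cd274 and 0.997 for the other 4. As the arrays fall into 2 sets by TsSP, such values mostly restate that split. After group means were removed, r with Tnf was 0.940 for Cd274, 0.517 for Batf2, 0.586 for Slamf7, 0.644 for Nlrp3 and 0.753 for Chac1. For Ltb the nearest were Trim26, Cpt1a and Trmt1l (r of 0.986, 0.986 and 0.985), and for Adam17 they were Wdr75, Rusc2 and Zfand5 (0.968, 0.966 and 0.965). For Tnfrsf1b they were Nol6, Apaf1 and Dock8 (0.963, 0.942 and 0.941), and for Tnfrsf1a they were Rpl22l1, Rpl7a and Rps9 (0.916, 0.869 and 0.823). The arrays share a platform and any technical variation between them, so these values are descriptions and carry no test.

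The 12 arrays had median signals of 5.16 to 5.30 and 8771 to 9059 genes above background, and pairs of arrays correlated across genes at 0.985 to 0.995. No 2 arrays held identical values. All 8 measured macrophage markers were above background in every group. The log2 of their summed signal was 19.24 to 19.27 with inulin and TsSP, 19.20 to 19.24 with TsSP, 19.06 to 19.08 with inulin and 18.98 to 19.05 with LPS. Of the 8, 3 were called higher with TsSP, namely Itgam, which encodes CD11b (0.71 log2 units), Lyz2, a lysozyme (0.35), and Fcgr1, an Fc receptor (0.27). Adgre1, which encodes a surface antigen of mouse macrophages, was called 1.10 log2 units lower, and the part of these shifts in the results for Tnf was not tested. None of the 4 B cell, 4 epithelial or 4 neutrophil and mast cell markers was above background in any group. Of 8 markers of T, NK and innate lymphoid cells, the usual sources of Lta and Ltb, Il7r alone was above background. Of 4 fibroblast markers Dcn alone was above background in every group, and it was 0.61 lower with TsSP.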

How the data were processed

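Total RNA of RAW 264.7 cells, taken with an RNeasy kit, was biotin-labelled by the standard protocol of Affymetrix, per the labels' protocols. The authors deposited 1 log2 value per probe set and array. The range (1.32 to 18.9) is that of log2 values, which is how the base was inferred. How the authors normalized them, and with which software, is not given in the sources used here, so any compression of bright signals by them is carried into the folds. The values were used as deposited. Of 28846 probe sets, 19572 have 1 gene symbol, and the brightest probe set stood for each of 55 genes with several, which left 19505 genes. Background was the brightest of 23 background probes on each array, and a gene was above background in a group when it exceeded that on all 3 arrays. Where the dimmer group was not above it, the fold is a bound, in which dim arrays enter at their background level if that exceeds their signal.

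Each comparison was a contrast in 1 limma model of 4 group means (lmFit and eBayes, limma 3.58.1, R 4.3.3, 8 residual and 3.35 prior degrees of freedom), two-sided, with p-values adjusted by Benjamini and Hochberg over 19505 genes and a threshold of 0.05. The fitting was tested on simulated data. Exon controls were 1324 probe sets. The number of arrays limits the precision. The 6 genes and the 8 lists were chosen with earlier results of these data known. The names given for a list are up to 6 members by smallest F p and every member where a count is 5 or fewer, and a few others of known role were named after their values were seen. The most similar genes were those above background with the highest Pearson r. Of the list entries, 12 are not analysed here. Alternatives were 3 other scalings, a mean-variance trend, array weights, genes above background only, the mean over probe sets, a replicate block and leaving out each of 12 arrays. Plots used matplotlib 3.10.9 in Python 3.11.15.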

Additional observations from a re-analysis of the deposited data

How the results depend on the processing

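Of 952 recomputed differences of the 6 genes, 892 kept direction and side of the threshold, 35 changed sign, 22 newly passed and 3 no longer passed, and the causes were not tested. The TsSP difference over 6 against 6 arrays ranged from -2.86 to -2.67 for Tnf, -2.55 to -2.33 for Ltb and -0.49 to -0.30 for Adam17. Instead of 2 of the 6 genes, 4 passed for inulin with TsSP against LPS when arrays were centred on exon controls, with a mean-variance trend, or with genes above background only (4 in each), and 4 for inulin with TsSP against inulin with the trend, Adam17 and Tnfrsf1b being the additions. None of the values that changed sign was past the threshold. With quantile normalization, centring on genes above background and centring on exon controls, inulin against LPS was -0.0047, -0.013 and -0.055 for Adam17 and -0.022, -0.0020 and -0.045 for Tnf, and the interaction was 0.036, 0.053 and 0.072 for Tnfrsf1b. With the last 2 of these, Tnfrsf1a gave 0.040 and 0.059 for the interaction, -0.040 and -0.15 for TsSP over 6 against 6 arrays, and -0.060 and -0.18 for TsSP against LPS. It also gave 0.018 for inulin with TsSP against inulin with quantile normalization and -0.026 for inulin with TsSP against LPS on exon controls. With 1 array left out at a time, inulin against LPS ranged from -0.00018 to 0.057 for Adam17 and -0.0011 to 0.31 for Ltb. The interaction ranged from -0.54 to 0.25 for Lta, -0.14 to 0.081 for Tnfrsf1a and -0.16 to 0.077 for Tnfrsf1b. For Tnfrsf1a, inulin with TsSP against inulin ranged from -0.11 to 0.11, TsSP over 6 against 6 arrays from -0.041 to 0.069, and TsSP against LPS from -0.045 to 0.091. Of 320 list counts by direction, 30 moved by over 1.5 times, and of 160 counts over all genes, taken over both directions together, 0 did. By direction, centring on exon controls moved the counts over 6 against 6 arrays to 1831 higher and 3817 lower. Lta has no value among genes above background only. Same-numbered arrays of different groups showed no shared deviation (18 pairs, r from -0.094 to 0.10, median -0.015). Pairs with different numbers were alike (36 pairs, r from -0.13 to 0.11, median 0.0078). With 3 arrays per group, such values cannot tell whether the numbers pair the arrays. With a replicate block the Tnf difference stayed at -2.70 (adjusted p = 7.15e-08), and calls over all genes were 2743 higher and 2016 lower, against 2878 and 2150 without the block. Genes near background, Lta and Ltb among them, are limited by signal.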
